A study of Mus musculus with 14 samples.

Results

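The GIMAP genes (GTPases of immunity-associated proteins) encode GTPases that are found mostly in lymphocytes. The 8 mouse genes Gimap1, Gimap3, Gimap4, Gimap5, Gimap6, Gimap7, Gimap8 and Gimap9 were taken by symbol from a table of 48363 genes with values, and all 8 passed the filter on low values that left 16241 genes for testing. They were measured by RNA-seq in CD4+ FOXP3-YFP+ regulatory T cells (Tregs) sorted from pooled spleen and lymph nodes of untreated mice. The 5 cKO libraries came from mice in which both miR-15/16 loci are flanked by loxP sites (miR-15/16 fl/fl) and Cre made from the Foxp3 locus deletes both miR-15/16 clusters once a cell expresses Foxp3. The 4 WT libraries came from Tregs with intact miR-15/16 of the same Foxp3-Cre YFP line. The 3 CD25hi and 2 CD25lo libraries came from WT Tregs sorted by surface CD25, the α chain of the IL-2 receptor. All groups carry the YFP-Cre allele at Foxp3, so Cre and the reporter are shared by cKO and control cells. The sources used here give no age for single libraries. The cKO and WT comparison asks what loss of the miRNAs does in Tregs, and the CD25lo and CD25hi comparison asks how WT Tregs with little CD25 differ from those with much.

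GIMAP proteins share a GTP-binding domain and sit on intracellular membranes or in the cytosol. They are best known for keeping resting T and B cells alive. Loss of Gimap5 gives severe lymphopenia in mice and rats, and Gimap1 is needed for mature lymphocytes to survive. Gimap6 binds the autophagy protein GABARAPL2, and Gimap4 affects how quickly T cells complete apoptosis. The deleted miRNAs bind mRNAs through their seed, the bases 2 to 8 from the 5′ end. The mature sequences (RefSeq, GRCm38.p6) are shown with the seed in capitals, because the seed is what a GIMAP transcript would have to match.
mmu-miR-15a-5p: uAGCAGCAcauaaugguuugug
mmu-miR-15b-5p: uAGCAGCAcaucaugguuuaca
mmu-miR-16-5p: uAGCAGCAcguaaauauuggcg
All of these share the seed AGCAGCA and form 1 seed group.

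Libraries held 30055573 to 35226685 reads in genes, and every GIMAP value rests on 2397 reads or more. The miRNA hairpins Mir15a, Mir15b, Mir16-1 and Mir16-2 were listed at 0 in all 14 libraries, so they do not check the deletion. Dleu2, the host transcript of Mir15a and Mir16-1, lay between 2121 and 2713 normalized counts in cKO and between 86.3 and 1100 in WT. Smc4, the host gene of Mir15b and Mir16-2, lay between 38804 and 43250 in cKO and between 39583 and 41486 in WT. Treg markers were high throughout, with Foxp3 at 14546 normalized counts or more and Cd4 at 35747 or more. Their levels were not constant, and Ctla4 ranged from 8536 to 40696. Of the 7 markers listed, 4 were called lower in CD25lo than in CD25hi (Il2ra, Foxp3, Ikzf2 and Tnfrsf18), where 1.01% of all genes tested were. In cKO compared with WT, Il2ra was called lower and Ikzf2 higher, where 1.48% and 2.04% of all genes tested were. By Xist and Y-linked transcripts, all 5 cKO libraries and 1 WT library (replicate 3) came from females and the other 9 libraries from males. WT replicate 4 stood apart from the other WT libraries. Immediate early and stress genes, transcripts induced within minutes of handling or activation, had a mean log2 level of 11.96 there, against 13.55 to 13.81 in WT replicates 1 to 3 and 11.74 to 12.30 in the CD25-sorted libraries. In cKO, these genes were at 12.49 to 12.99 in replicates 1 to 3 and at 13.45 to 13.77 in replicates 4 and 5. Myeloid markers summed to 2551 to 5200 normalized counts in WT replicates 1 to 3, to 925.9 in WT replicate 4 and to 363.6 to 3267 in cKO. The part of these differences in the GIMAP values was not tested, beyond the fits given beside the results.

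GIMAP transcripts were among the most abundant mRNAs of these Tregs. Together, the 8 genes took 0.381% to 0.482% of all normalized counts of a library, and Gimap3, Gimap4 and Gimap6 made up 74.8% to 77.5% of that sum. Genes can be compared with each other only per length, and the order was taken from the mean of 14 libraries in normalized counts per kb of exon. On this scale, Gimap4 had the highest level with 15811 (range 13956 to 18795), which ranked 34 among 16238 genes. Gimap3 followed at 14185 per kb and Gimap6 at 10855 per kb. The ranges of Gimap4 and Gimap3 overlapped, as did those of Gimap3 and Gimap6, so their order is not set beyond the spread of the libraries. Gimap8, a large GIMAP protein with repeated GTPase domains, was at 4178 per kb. Gimap9 was at 2647, Gimap1 at 1945 and Gimap7 at 1355 per kb. Gimap5 had the lowest level of the family with 728.7 per kb (range 596.8 to 860.0), and still exceeded 86.1% of the genes ranked. From Gimap6 down to Gimap5, no gene's range reached that of the next one.

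**Figure D1:**
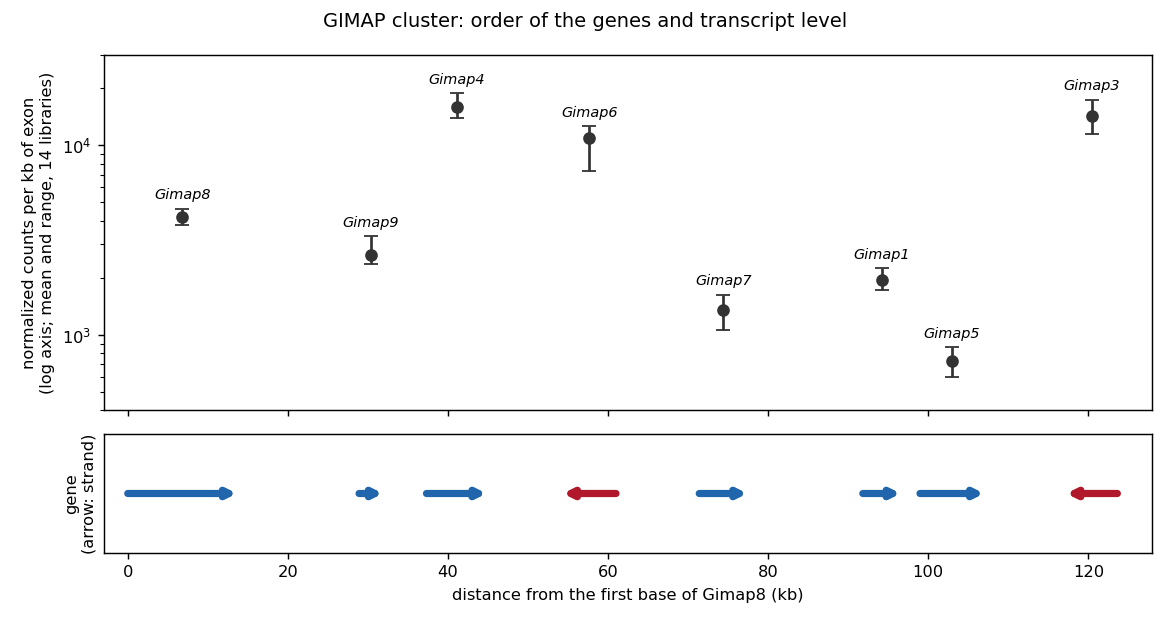
Order of the 8 GIMAP genes along the chromosome (arrows point along the strand, x axis in kb from the first base of Gimap8) and their normalized counts per kb of exon on a log axis, as mean and range of 14 libraries. Gimap4, Gimap3 and Gimap6 lie at 7289 per kb or more in every library and Gimap5 at 860.0 or less.

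The 8 genes lie next to each other on mouse chromosome 6 (GRCm38) within 123.6 kb, from 48647234 to 48770851. In genome order they are Gimap8, Gimap9, Gimap4, Gimap6, Gimap7, Gimap1, Gimap5 and Gimap3. Gimap6 (chr6:48701582-48708225) and Gimap3 (chr6:48764464-48770851) are on the minus strand, and the other 6 genes are on the plus strand. Levels did not follow this order, since Gimap4 (chr6:48684549-48692060) lies next to Gimap9 (chr6:48676129-48679114), and Gimap3 lies next to Gimap5 (chr6:48746197-48754210), the gene with the lowest level per kb. Another 5 annotated genes lie between the first and last GIMAP gene. Gimap1os, a noncoding transcript on the strand opposite Gimap1 (chr6:48739054-48743795), was at 871.8 to 1492 normalized counts. Gm28053, annotated on the same strand across Gimap7 (chr6:48718621-48724636), Gimap1 and Gimap5, was at 0 to 147.4. The lincRNA 4833403J16Rik was at 150.4 to 481.6, the lincRNA Gm44226 at 0 to 32 and the pseudogene Gm44262 at 0 in all libraries. Beyond the cluster, none of the 5 nearest tested genes on either side exceeded a mean of 458.7 normalized counts (Malsu1). None of these 14 tested neighbours passed the test in either comparison.

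Reads of 50 bases can be assigned to a single gene only where the sequence is unique. Gimap4, Gimap8 and Gimap9 shared no 50-base stretch of their transcripts with another gene. Gimap3 and Gimap5 shared 190 such stretches, 7.52% of those of Gimap3 and 4.53% of those of Gimap5. Gimap1 shared 5.94% of its stretches with other genes, mostly Gm28053, Gimap7 shared 1.39% and Gimap6 shared 0.0566%. The strand setting of the counting is not given in the sources used here. Without strand, reads of Gimap1 and Gimap1os cannot be told apart where they overlap, and the levels of Gimap1, Gimap3 and Gimap5 are uncertain to that extent.

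In the longest annotated 3′ UTR (GENCODE, GRCm38), 2 of the 8 genes held a match to the miR-15/16 seed. Matches were TGCTGCT, which pairs with bases 2 to 8, or GCTGCTA, which pairs with bases 2 to 7 followed by an A. Both sites are shown with the match in capitals, because these transcripts could be bound by the deleted miRNAs.
Gimap4 (chr6:48691980-48692009, plus strand): atatccaatcaTGCTGCTtctgcccccacc
Gimap6 (chr6:48702520-48702549, minus strand): gccccatgcagTGCTGCTggtgatacaggt
The site in Gimap4 lies in a 3′ UTR of 761 bases and the site in Gimap6 in one of 2822 bases. Of 12731 tested genes with a 3′ UTR, 27.77% held such a match. Gimap1, Gimap3, Gimap5, Gimap7, Gimap8 and Gimap9 held none. A match is a description of the letters and does not show binding.

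In cKO compared with WT Tregs, no GIMAP gene passed the test (limma, Benjamini-Hochberg adjusted p under 0.05 over all genes tested), while 2.04% of all genes tested were called higher and 1.48% lower. Log2 fold changes of the family were small and went both ways, with 4 genes on either side of 0 and a range from -0.20 to 0.09. Their median was -0.02, against 0.05 over all genes tested. Over the 5830 genes with a mean of at least 1000 normalized counts, the median was -0.01. At an unadjusted p under 0.05, 2 genes were lower (Gimap3 and Gimap9) and none higher, where 6.56% of all genes were lower and 9.57% higher by that rule. The 95% intervals of all 8 log2 fold changes lay between -0.37 and 0.31. No GIMAP gene had groups that did not overlap, against 4.92% of all genes with cKO above WT and 3.62% with cKO below WT. edgeR and DESeq2 on reads recovered from the normalized counts also called none.

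Gimap6 and Gimap4, which hold the seed matches, were not called between cKO and WT. In cKO, the values of Gimap4 were 26226, 25638, 27566, 28487 and 30547 normalized counts, and in WT they were 29614, 31566, 28039 and 29239. The groups overlapped, and the log2 fold change was -0.10 ± 0.06 (SE; limma adjusted p = 0.453). Gimap6 was at 41128, 42242, 37101, 43070 and 40127 in cKO and at 43925, 44077, 43394 and 31879 in WT. WT replicates 1 to 3 were above every cKO library, and WT replicate 4 was below all of them. The log2 fold change was 0.01 ± 0.10 (SE; limma adjusted p = 0.982), and it was -0.11 without WT replicate 4, with an adjusted p of 0.562.

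The 2 genes with the lowest p were Gimap9 and Gimap3. Gimap9, one of the smaller family members, was at 3989, 3914, 4277, 4223 and 4249 normalized counts in cKO. In WT it was at 5016, 5419, 4843 and 3863, so that replicates 1 to 3 were above all cKO libraries and replicate 4 was below them. The log2 fold change of Gimap9 was -0.20 ± 0.08 (SE; limma adjusted p = 0.212), and without WT replicate 4 it was -0.30 with an adjusted p of 0.0160, when 1.71% of all genes were called lower. With sex as a term the value was -0.23. WT replicate 3 is the only WT library from a female, so that term sets cKO against this library alone. Gimap3, a relative of Gimap5 with a membrane anchor, was at 33495, 33644, 34898, 29628 and 29761 in cKO and at 35131, 36483, 33649 and 42039 in WT. Here WT replicate 4 was the highest library of the group, and the lowest WT library lay within the cKO range. The log2 fold change of Gimap3 was -0.19 ± 0.07 (SE; limma adjusted p = 0.178). It was -0.22 with the immediate early level as a term (limma adjusted p = 0.0218, where 2.27% of all genes were called lower). With sex as a term the log2 fold change of Gimap3 was -0.06, again set against WT replicate 3 alone.

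The other 4 genes had log2 fold changes between -0.05 and 0.09 in cKO. Gimap7, a GTPase that is active as a dimer, ranged from 3030 to 3793 normalized counts in cKO and from 2463 to 3563 in WT. Gimap5, the family member linked to lymphopenia, ranged from 2761 to 3568 in cKO and from 2779 to 3552 in WT. Both pairs of ranges overlapped. Gimap1 averaged 5947 ± 289 (SD, n = 5) and 5876 ± 668 (SD, n = 4), and Gimap8 14923 ± 843 (SD, n = 5) and 15427 ± 418 (SD, n = 4). In bulk RNA of sorted cells, fewer cells of a type and less RNA per cell cannot be told apart.

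**Figure D2:**
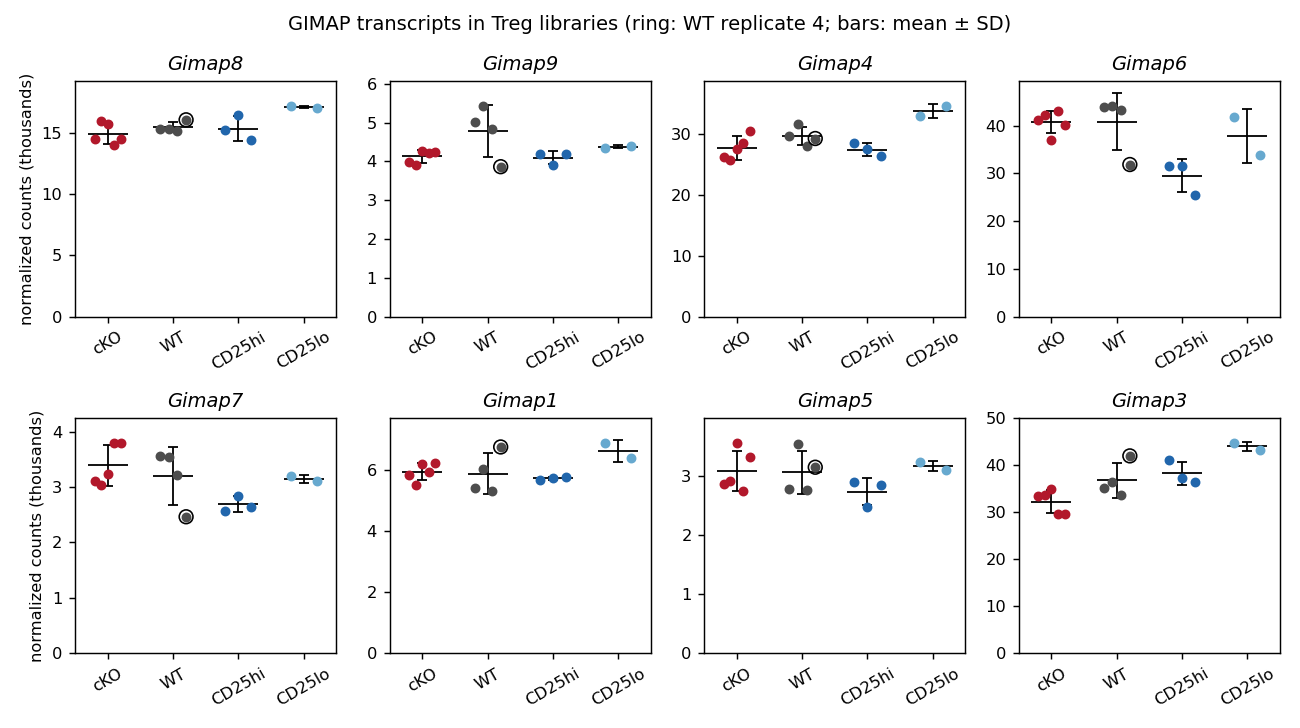
Normalized counts (in units of 1000, linear axis from 0) of the 8 GIMAP genes in each library, with points for libraries, bars for group mean ± SD and a ring around WT replicate 4. WT replicate 4 falls below the other WT libraries for Gimap6, Gimap7 and Gimap9 and above them for Gimap1, Gimap3 and Gimap8, and both CD25lo libraries lie above the 3 CD25hi libraries in every panel.

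WT replicate 4 set the WT spread of several GIMAP genes. It lay outside the range of the other 3 WT libraries for 6 of the 8 genes (75.0%). For all genes with a mean of at least 1000 normalized counts the share was 64.3%, so this count does not set the family apart. For Gimap7, WT replicate 4 was at 2463 and the other WT libraries were at 3221 to 3563, a log2 difference of -0.48 from their mean. For Gimap6 the difference was -0.46, for Gimap9 -0.40, for Gimap1 0.28 and for Gimap3 0.26. The CD25hi libraries differed from WT replicates 1 to 3 in the same direction for each of these 5 genes, by -0.36 for Gimap7, -0.57 for Gimap6, -0.31 for Gimap9, 0.04 for Gimap1 and 0.13 for Gimap3. For each of them, the log2 difference of WT replicate 4 from the other WT libraries was larger than the log2 fold change between cKO and WT. WT replicate 4 and CD25hi also differed alike from WT replicates 1 to 3 over the genes at 1000 or more (Pearson's r = 0.82). Over all genes tested r was 0.44, so this likeness is not particular to the GIMAP genes. Without WT replicate 4, cKO lay below WT with no overlap for 2 genes (Gimap6 and Gimap9) and above WT for none, where 6.18% of all genes did so below and 7.1% above.

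In CD25lo compared with CD25hi Tregs, all 8 GIMAP genes were at higher levels in both CD25lo libraries than in any CD25hi library, and none passed the test. Groups of 2 and 3 libraries are separated often, and 12.9% of all genes tested were higher without overlap and 11.6% lower. The family's median log2 fold change was 0.21, against 0.00 over all genes tested and 0.02 over 5830 genes with a mean of at least 1000 normalized counts. Of all genes tested, limma called 0.61% higher and 1.01% lower. At an unadjusted p under 0.05, 4 GIMAP genes were higher (Gimap1, Gimap3, Gimap4 and Gimap6) and none lower, where 6.51% of all genes were higher and 6.95% lower by that rule. The 8 genes lie in 1 cluster and were measured in the same 5 libraries, so they are not separate replicates of the comparison.

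Gimap4, a regulator of T cell apoptosis, came closest to the threshold. It was at 32957 and 34527 normalized counts in CD25lo and at 28446, 27439 and 26337 in CD25hi. Both CD25lo libraries also lay above all WT and cKO libraries. The log2 fold change was 0.30 ± 0.08 (SE; 95% interval 0.13 to 0.47), a fold of 1.23, with a limma adjusted p of 0.0753. Gimap4 was called higher in 3 other fits, DESeq2 (adjusted p = 0.00543, where 1.31% of all genes were called higher), a filter at a mean of 100 (adjusted p = 0.0457, 1.13%) and the immediate early level as a term (adjusted p = 0.0426, 1.13%). edgeR with TMM scaling gave an adjusted p of 0.0768.

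Gimap6, the autophagy-linked member, had the largest fold change of the family and the widest spread. It was at 41892 and 33798 normalized counts in CD25lo and at 31665, 31520 and 25481 in CD25hi. The CD25lo libraries differed from each other by more than the lower of them differed from CD25hi. The log2 fold change was 0.36 ± 0.13 (SE; limma adjusted p = 0.220), and it ran from 0.20 without CD25lo replicate 1 to 0.51 without CD25lo replicate 2.

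Gimap3 was at 44783 and 43389 normalized counts in CD25lo and at 41083, 37270 and 36529 in CD25hi. The CD25lo libraries had the highest Gimap3 values of all 14, with a log2 fold change of 0.20 ± 0.10 (SE; limma adjusted p = 0.369). Gimap8 was at 17141 and 16993 in CD25lo and at 15169, 16429 and 14367 in CD25hi. The CD25lo values of Gimap8 were also the highest of all libraries, with a log2 fold change of 0.16 ± 0.08 (SE; limma adjusted p = 0.394). Gimap1 was at 6883 and 6380 in CD25lo and at 5678, 5726 and 5774 in CD25hi. The 3 CD25hi values of Gimap1 lay within 100 of each other, and the log2 fold change was 0.21 ± 0.10 (SE; limma adjusted p = 0.351). Gimap5 and Gimap7 had log2 fold changes of 0.21 and 0.23 with adjusted p of 0.493 and 0.505. Gimap9 had the smallest, 0.10 ± 0.11 (SE; limma adjusted p = 0.762). The upper bounds of the 95% intervals reached folds of 1.55 for Gimap6 and 1.25 for Gimap8, so larger differences in these 2 genes were outside the intervals.

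**Figure D3:**
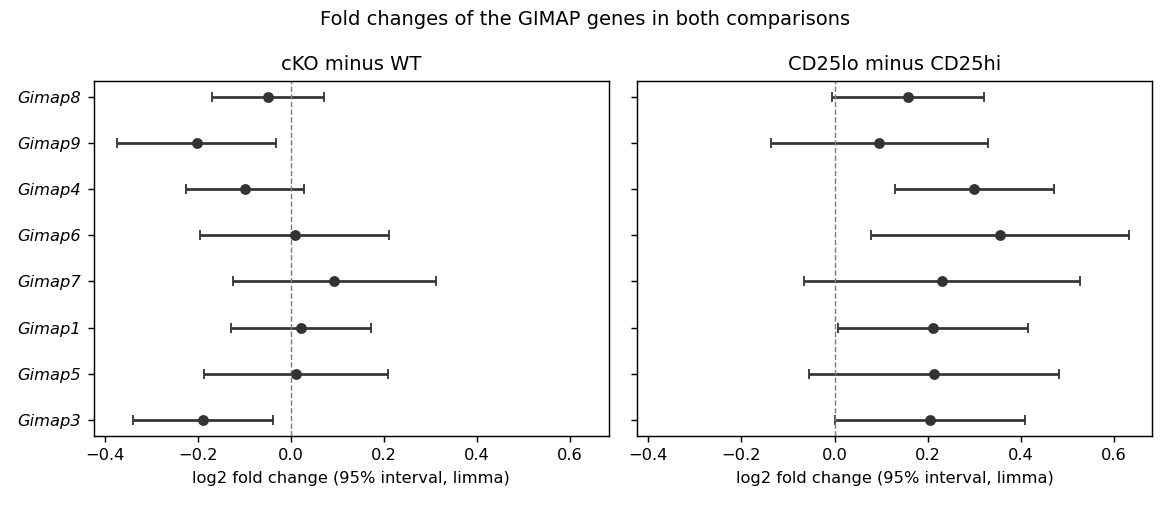
Log2 fold changes of the 8 GIMAP genes (x axis) with 95% intervals from limma, for cKO minus WT (left) and CD25lo minus CD25hi (right), in genome order. Values lie between -0.20 and 0.09 on the left and between 0.10 and 0.36 on the right, and no gene passed the adjusted threshold.

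The group with the highest mean differed between genes. CD25lo had the highest mean for Gimap1, Gimap3, Gimap4, Gimap5 and Gimap8. Among these, its range was clear of every other group for Gimap3, Gimap4 and Gimap8. For Gimap1, WT replicate 4 lay above CD25lo replicate 2, and for Gimap5 the ranges also overlapped. The share of all genes with such an order was not computed, so these counts do not set the family apart. WT had the highest mean of Gimap6 (40818, with cKO at 40734) and of Gimap9, and cKO that of Gimap7. CD25hi had the lowest mean for 6 genes, and cKO had it for Gimap3 and Gimap8. Immediate early levels were lower in the CD25-sorted libraries (11.74 to 12.30) than in WT replicates 1 to 3 and in all cKO libraries. All CD25-sorted libraries came from males and all cKO libraries from females. The part of these differences in the order of the groups was not tested. The fold change in cKO was below that in CD25lo for all 8 genes, with a median difference of -0.25 on the log2 scale. Over all genes tested, the median difference was 0.05, and 54.0% of them had a difference above 0. Over genes with a mean of at least 1000 normalized counts, the median was -0.03. The 8 genes lie in 1 cluster and were measured in the same libraries, so they are not separate replicates of this difference. In the test of this difference, no GIMAP gene passed, where 0.671% of all genes were called higher and 0.363% lower. At an unadjusted p under 0.05, 5 GIMAP genes were lower (Gimap3, Gimap4, Gimap6, Gimap8 and Gimap9) and none higher, against 5.68% and 8.08% of all genes. The difference was -0.40 ± 0.10 (SE) for Gimap4 with a limma adjusted p of 0.0634, and -0.39 ± 0.12 (SE) for Gimap3 with an adjusted p of 0.129.

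The 8 genes did not vary as 1 unit across libraries. Over the 14 libraries, which share their scaling and the differences of WT replicate 4 described above, Pearson's r of log2 levels was positive for 19 of the 28 pairs and negative for 9, with a median of 0.27. Gimap6 and Gimap7 had the highest value (r = 0.78), followed by Gimap3 and Gimap8 (r = 0.77). Gimap3 and Gimap7 had the lowest (r = -0.62), and Gimap3 and Gimap6 were also opposed (r = -0.42). Neighbours in the genome were not always alike, with r = 0.60 for Gimap1 and Gimap5 and 0.14 for Gimap5 and Gimap3. With the group means taken out, Gimap7 and Gimap9 were at r = 0.80 and Gimap3 and Gimap7 at r = -0.81. Taking out group means does not remove WT replicate 4, which was below the other WT libraries for Gimap7 and Gimap9 and above them for Gimap3. Some other pairs changed sign, such as Gimap3 and Gimap4, from 0.48 to -0.23.

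**Figure D4:**
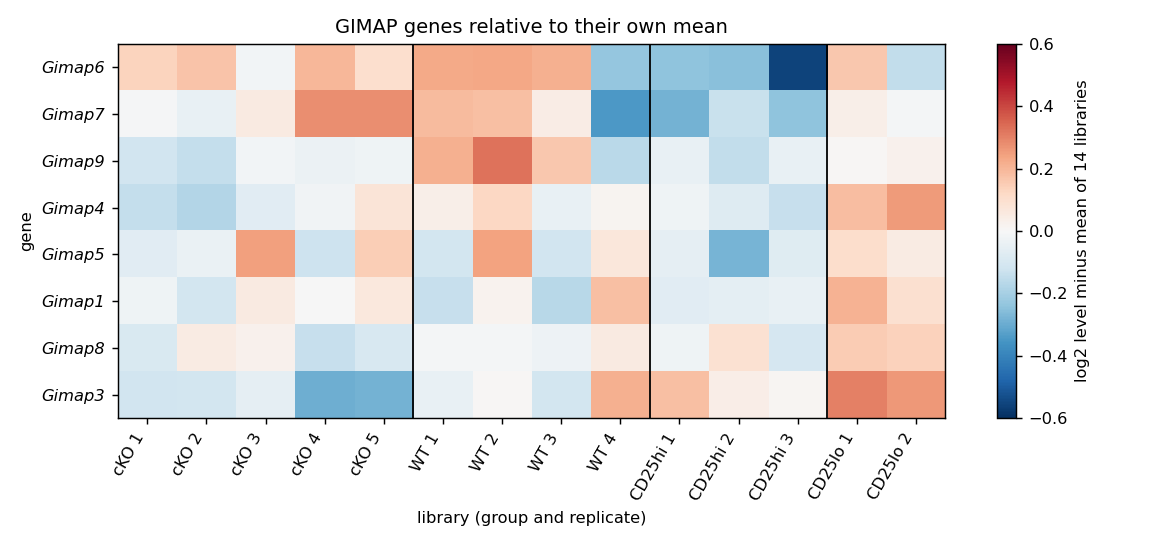
Log2 level of each GIMAP gene (rows) in each library (columns, grouped by vertical lines), relative to the mean of that gene over 14 libraries. WT replicate 4 and the CD25hi libraries are low for Gimap6 and Gimap7, WT replicate 4 and CD25hi replicate 1 are high for Gimap3, and both CD25lo libraries are high for Gimap3, Gimap4, Gimap1 and Gimap8.

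Among 10292 other genes with a mean of at least 100 normalized counts, the 7 whose log2 levels followed the mean of the GIMAP genes most closely over the 14 libraries had r from 0.84 to 0.91. They were Gm8369 (0.91), Gm43352 (0.91), Mindy1 (0.88), Syne2 (0.87), Arhgef6 (0.85), Pstpip1 (0.85) and Wdr26 (0.84). Arhgef6 encodes an exchange factor for Rac and Cdc42. Of these, Syne2, which encodes a large nuclear envelope protein, was called higher in CD25lo (log2 fold change 0.60, limma adjusted p = 0.0391). The best r was chosen from all those genes, and is given as a description.

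RefSeq gave promoter windows of 300 bases (250 before to 50 after a start site, GRCm38.p6) for all 8 genes, 9 in all because Gimap8 has a second start. Windows were searched on both strands for GTAAACA (FOXO factors), TTCNNNGAA (STAT factors), TGTGGTT (RUNX), CCGGAAGT (ETS) and CTTTGAT (TCF and LEF). FOXO and STAT factors act in resting and in IL-2 stimulated T cells. The STAT motif was in 4 of the 9 windows, those of Gimap3, Gimap6, Gimap7 and the second start of Gimap8, against 8.298% of 32851 windows of all genes. The FOXO motif was in 1 window, that of Gimap3 (3.65% of all windows). No window held the RUNX, ETS or TCF and LEF letters, which were in 5.269%, 3.887% and 3.729% of all windows. The windows of Gimap3, Gimap6 and Gimap7 are shown with the motifs in capitals, because Gimap3 was opposed to the other two across libraries and all of them hold the STAT motif. Gimap8, whose second window also holds it, was most like Gimap3.
Gimap3 (chr6:48770802-48771101, minus strand): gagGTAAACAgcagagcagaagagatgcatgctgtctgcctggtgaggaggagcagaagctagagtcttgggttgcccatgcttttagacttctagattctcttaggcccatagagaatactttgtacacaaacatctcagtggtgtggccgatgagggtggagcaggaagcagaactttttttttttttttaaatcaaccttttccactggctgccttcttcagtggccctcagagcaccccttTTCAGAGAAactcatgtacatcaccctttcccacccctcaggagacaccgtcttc
Gimap6 (chr6:48708195-48708494, minus strand): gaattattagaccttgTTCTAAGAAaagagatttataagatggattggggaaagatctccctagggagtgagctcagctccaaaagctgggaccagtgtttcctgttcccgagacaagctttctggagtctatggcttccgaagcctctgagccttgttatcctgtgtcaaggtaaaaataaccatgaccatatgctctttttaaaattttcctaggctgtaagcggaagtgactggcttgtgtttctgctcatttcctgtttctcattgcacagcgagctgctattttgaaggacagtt
Gimap7 (chr6:48718371-48718670, plus strand): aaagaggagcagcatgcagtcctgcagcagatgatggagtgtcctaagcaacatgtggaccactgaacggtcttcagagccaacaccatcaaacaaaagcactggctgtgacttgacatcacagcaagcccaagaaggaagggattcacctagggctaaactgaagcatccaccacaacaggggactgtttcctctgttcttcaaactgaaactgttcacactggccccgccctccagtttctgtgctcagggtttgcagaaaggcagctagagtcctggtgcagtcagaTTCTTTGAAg
In the Gimap3 window the capitals are the FOXO motif at -247 and the STAT motif at -5 from the start site. The STAT motif is at -234 in the Gimap6 window and at 40 in the Gimap7 window. The motifs do not overlap each other, and a match does not show that a factor binds.

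Genes linked to GIMAP function were taken as a list of 15, the autophagy proteins of the GABARAP and LC3 families, GSK3 and β-catenin, and BCL2 family regulators of survival. In cKO, 3 of the 15 were called lower (1.48% of all genes tested) and none higher (2.04%), with a median log2 fold change of -0.09. Bak1, a pore-forming effector of apoptosis, fell to 2511 from 3341 normalized counts (log2 fold change -0.41, limma adjusted p = 0.0119). Mcl1, a survival factor of lymphocytes, fell to 21275 from 27982 (-0.39, adjusted p = 0.0119), and the kinase Gsk3a to 4810 from 5700.4 (-0.24, adjusted p = 0.0344). In CD25lo, Bcl2l1, which encodes the survival protein BCL-XL, was the only gene of the list called (1410 against 2308 in CD25hi, log2 fold change -0.72, limma adjusted p = 0.0286), where 1.01% of all genes were called lower and 0.61% higher. The median of the list there was 0.04. For this list and the lists below, only the main fit is given. In it, all 5 cKO libraries but only 1 of the 4 WT libraries came from females. A sex term would set cKO against that 1 WT library alone and cannot decide how far these calls rest on sex. The part of sex in these calls was not tested.

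Genes of resting lymphocytes were set beside the family as a list of 14. In cKO, 1 was called higher (2.04% of all genes) and 3 lower (1.48%), with a median log2 fold change of -0.18. Il7r, the IL-7 receptor chain that keeps resting T cells alive, was called higher (1.02, limma adjusted p = 3.29e-05), and Foxp1, a factor of T cell quiescence, lower (-0.30, adjusted p = 0.0150). In CD25lo, 2 were called higher (0.61% of all genes) and none lower (1.01%), with a median of 0.28 that was above the median of the GIMAP genes. These were Tcf7, a factor of naive and memory T cells (0.63, limma adjusted p = 0.00136), and Actn1, an actin crosslinker (0.59, adjusted p = 0.0116).

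The interferon-induced IRG and GBP genes, another group of immune GTPases, gave a list of 12. In each comparison, 3 members passed the threshold as lower and none as higher, where 1.48% of all genes were lower in cKO and 1.01% in CD25lo. Gbp7 was lower in cKO (-0.27, limma adjusted p = 0.0306) and in CD25lo (-0.47, adjusted p = 0.0142). Gbp2 was lower in cKO (-0.28, limma adjusted p = 0.0459) and in CD25lo (-0.43, adjusted p = 0.0362). Gbp3 was called in CD25lo (-0.78, adjusted p = 0.00105) and Gbp4 in cKO (-0.37, adjusted p = 0.0210). The median log2 fold change of the list was -0.08 in cKO and -0.04 in CD25lo.

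Markers of other cell types were low, apart from Pecam1 and, in some cKO and WT libraries, myeloid markers. B cell markers summed to 580.3 to 883.5 normalized counts in cKO and to 226 to 603 in WT, and to 256.1 to 366.7 in CD25hi and 196.8 to 299.2 in CD25lo. CD8 and NK cell markers summed to 532.7 to 693.6 in cKO and 630.3 to 1210 in WT, and to 450.2 to 797.3 in CD25hi and 842 to 854.9 in CD25lo. Myeloid markers summed to 363.6 to 3267 in cKO and 925.9 to 5200 in WT, and to 330.3 to 649.6 in CD25hi and 487.3 to 1048 in CD25lo. Endothelial markers other than Pecam1, which T cells also express, summed to at most 39.6 in any library, and Emcn and Tek were at 0 in all. No gene of the B cell, myeloid or CD8 and NK cell lists was called in either comparison. The 8 myeloid genes tested had a median log2 fold change of -1.52 in cKO, with a range from -2.91 to 0.94. Of the endothelial list, Pecam1 was called lower in cKO (log2 fold change -0.33, limma adjusted p = 0.0116).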

How the data were processed

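RNA-seq values of 14 Treg libraries (5 cKO, 4 WT, 3 CD25hi, 2 CD25lo, grouped by their titles) were used. Per the labels and the methods, the authors used STAR 2.7.2b on single-end reads of 50 bases, with GRCm38 as genome. Their deposited signal (normalized counts) is, by its values, a library's reads per gene scaled by its DESeq2 1.24.0 size factor, with 1 decimal. The counter and its strand setting are not given in the sources used here. Further deposited columns hold stabilized log2 values, GC percent and the authors' comparisons (fold changes, p-values), and none was used. At least 99.94% of values were whole reads after division by the value of 1 read (within 0.055). Depth was 30055573 to 35226685 reads in genes.

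limma 3.58.1 (R 4.3.3, trend) was fitted to log2(normalized count + 1) with 4 group means over all 14 libraries and 16241 genes, those that reached 10 normalized counts in 2 or more libraries. P-values were Benjamini-Hochberg adjusted over all of these, and a gene was called at an adjusted p under 0.05. The plan named this test for values without raw counts. Alternatives were edgeR 4.0.16 and DESeq2 1.42.0 on recovered reads, TMM scaling, other filters and pseudocounts, fewer samples, terms for sex, replicate number and immediate early level, and leaving out each library. The fit was tested on simulated data. Fold changes are on the log2(value + 1) scale, and p-values measure the spread between libraries, described as biological replicates. Named were the 8 members, genes between them and the 5 nearest tested genes on each side, the 8 genes most correlated with them (1 is not reported here), and at most 4 genes with the smallest p of each list. The members and lists were chosen with earlier results of these data known. Sequences came from RefSeq GRCm38.p6 and GENCODE tables. The proteins were not analysed here.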

Additional observations from a re-analysis of the deposited data

Results flagged for a closer look

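Gimap6 in WT replicate 4 was at 31879 normalized counts, while the other 3 WT libraries lay between 43394 and 44077. Its gap to the nearest WT library was 0.944 of the range of the group, above the 95% critical value of Dixon's test for 4 samples. It was the only one of 16 groups examined (8 GIMAP genes in cKO and in WT) with such a value, and chance alone gives one in about 5% of groups. The same library was the lowest of the WT libraries for Gimap7 and Gimap9 without passing that limit.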

How the results depend on the processing

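As reported, limma called no GIMAP gene. DESeq2 called 1 gene higher in CD25lo (Gimap4) and 2 lower in the difference between the contrasts (Gimap3 at -0.39 and Gimap4 at -0.40). A filter at a mean of 100 called 1 gene higher in CD25lo and 1 lower in the difference (Gimap4 in both). The immediate early level as a term called 1 gene lower in cKO (Gimap3), 1 higher in CD25lo (Gimap4) and 2 lower in the difference. Over all genes, 289 of 23665 were lower in the difference with DESeq2 and 109 of 10300 with the filter at 100. The immediate early term gave 175 of 16241, and the main fit 59 of 16241. Leaving out each library in turn gave 0 to 1 genes lower in cKO, the 1 being Gimap9 without WT replicate 4, and 0 in every other count. Small cKO fold changes that were not called changed sign. Gimap6 was at -0.0030 with edgeR and DESeq2 size factors, -0.0027 with DESeq2 and -0.0932 with sex as a term. The sex term sets cKO against WT replicate 3 alone. In 2 cKO and 3 WT libraries of like immediate early level, chosen after seeing the data, Gimap6 was at -0.0752. With single libraries left out, the log2 fold change in cKO ran from -0.1065 to 0.0493 for Gimap6, from -0.0419 to 0.0842 for Gimap5, from -0.0243 to 0.0917 for Gimap1 and from -0.0270 to 0.1505 for Gimap7. The cause was not tested.

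With the replicate block, Gimap5 was at -0.0172 in cKO, and no GIMAP gene was called. Over all genes, the block left 163 calls higher and 127 lower in cKO, against 332 and 240. Deviations of same-numbered cKO and WT libraries correlated at -0.32 to -0.10, and those of CD25hi and CD25lo libraries at -0.06 to 0.02. These values gave no reason to pair the libraries, but the 2 CD25 pairs cannot show whether same-numbered sorts came from the same mice. Fitting only the CD25-sorted libraries called no gene at all. The 2 CD25lo libraries limit the precision.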
